A study of Mus musculus with 2 samples.

Results

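The 10 genes Eln, Fbln1, Fbln2, Fbln5, Efemp1, Efemp2, Emilin1, Mfap2, Mfap4 and Mfap5 encode elastin, fibulins and proteins of the microfibril, and they were chosen by name from the 18920 genes listed in both libraries. All 10 were present in both. The cells came from Marfan syndrome mice carrying Fbn1C1041G/+, an allele of the fibrillin-1 gene, which both groups share. One group received GLPG0187, named in the labels as an inhibitor of integrin alpha-v, daily between 6 and 16 weeks of age, and the other received vehicle over the same weeks. Aortic root and ascending aorta were taken at 16 weeks, males and females were pooled within each group, and each pool gave 1 single-cell library made with 10x Genomics 3′ chemistry. The labels do not say how many animals each pool held. The Fbn1 allele is carried by every cell, with no cell-type driver, and wild-type aorta was not analysed here. Cells were freed with Liberase and elastase, an enzyme mix that digests elastic fibres, and sorted to exclude debris.

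Elastic fibres give the aortic wall its recoil. Smooth muscle cells and fibroblasts secrete tropoelastin, the product of Eln, which is laid onto microfibrils of fibrillin and crosslinked there by lysyl oxidases. Fibulin-5 (Fbln5) and fibulin-4 (Efemp2) bind both tropoelastin and the lysyl oxidase family and are required for fibre assembly in mice, and fibulin-5 also carries an RGD motif that integrins bind. Fibulin-1 (Fbln1), fibulin-2 (Fbln2) and fibulin-3 (Efemp1) are related secreted matrix proteins, Emilin1 sits where elastin meets the microfibril and restrains TGF-beta processing, and Mfap2 and Mfap5 encode the microfibril-associated glycoproteins MAGP-1 and MAGP-2. Mfap4 encodes a fibrinogen-domain protein that binds elastic fibre components and, through an RGD motif, integrins including those with the alpha-v subunit.

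In GRCm38 with GENCODE M21, Eln is at chr5:134702593-134747323 on the minus strand, Emilin1 at chr5:30913402-30921277, Fbln1 at chr15:85205949-85286535, Fbln2 at chr6:91212455-91272540 and Mfap5 at chr6:122505845-122529290 on the plus strand. Fbln5 is at chr12:101746565-101819055 on the minus strand. Efemp1 is at chr11:28853204-28926743, Mfap4 at chr11:61485431-61488900, Efemp2 at chr19:5473954-5482517 and Mfap2 at chr4:141010418-141015984, all on the plus strand. All 10 are annotated as protein-coding. Eln, Mfap4 and Efemp2 overlap Gm30003, Mapk7 and Mus81 on the opposite strand, and no source used here says whether reads were counted by strand.

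The promoters of Fbln1, Fbln2, Efemp1 and Fbln5 are printed because these related genes fell into contrasting patterns among the larger populations described further on. The first 3 were highest there in the Pi16-marked fibroblasts, and Fbln5 was highest in modulated smooth muscle. Each line gives the 250 bases before 1 annotated start, 5′ to 3′ on the gene's strand, from RefSeq on GRCm38.p6. The windows are chr15:85205699-85205948, chr6:91212514-91212763 and chr11:28852955-28853204 on the plus strand and chr12:101819120-101819369 on the minus strand. Capitals mark matches on either strand to a set of motifs. These are the TATA box with letters TATAAA, the SMAD-binding element with CAGAC, the AP-1 site with TGANTCA, the TEAD site with CATTCC, the Sp1 site with GGGCGG, and the CArG box bound by serum response factor, given by name.
Fbln1: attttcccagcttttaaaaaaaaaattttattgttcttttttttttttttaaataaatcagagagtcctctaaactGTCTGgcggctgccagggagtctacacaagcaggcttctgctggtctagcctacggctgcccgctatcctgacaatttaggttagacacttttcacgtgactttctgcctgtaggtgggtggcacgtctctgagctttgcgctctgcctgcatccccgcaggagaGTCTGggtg
Fbln2: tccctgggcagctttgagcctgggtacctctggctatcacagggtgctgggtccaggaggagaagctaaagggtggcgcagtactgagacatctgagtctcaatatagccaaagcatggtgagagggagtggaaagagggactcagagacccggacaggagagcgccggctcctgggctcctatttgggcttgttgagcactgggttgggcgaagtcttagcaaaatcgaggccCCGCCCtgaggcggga
Efemp1: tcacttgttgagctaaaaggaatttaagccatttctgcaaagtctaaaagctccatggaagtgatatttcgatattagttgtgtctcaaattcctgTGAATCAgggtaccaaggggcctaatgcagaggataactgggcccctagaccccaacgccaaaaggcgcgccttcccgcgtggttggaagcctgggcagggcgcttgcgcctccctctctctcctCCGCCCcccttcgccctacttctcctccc
Fbln5: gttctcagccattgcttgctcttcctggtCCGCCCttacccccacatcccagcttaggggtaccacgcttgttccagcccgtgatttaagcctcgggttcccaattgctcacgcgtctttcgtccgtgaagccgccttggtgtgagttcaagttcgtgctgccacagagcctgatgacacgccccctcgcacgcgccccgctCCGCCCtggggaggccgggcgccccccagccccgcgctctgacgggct
These windows held the SMAD element in Fbln1, the Sp1 site in Fbln2, Efemp1 and Fbln5, and the AP-1 site in Efemp1. Fbln1 and Fbln5 have another annotated start each, whose windows held the Sp1 site and the SMAD element in Fbln1 and the SMAD element in Fbln5, so which motifs these genes share depends on the start shown. Windows were matched for 7 of the 10 genes, that is all but Eln, Mfap4 and Mfap5, with 12 starts. The TATA box and the CArG box matched none of the 12 windows, against 12.4% and 1.47% of the 32851 windows in the table. The SMAD element occurs in 42.2% of all windows, the AP-1 site in 6.75%, the TEAD site in 12.6% and the Sp1 site in 32.7%. A match describes letters only.

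The GLPG0187 library listed 4397 cells and the vehicle library 2961, of which 4349 and 2945 remained after doublet removal, with medians of 3773 and 3788 genes detected per listed cell. The deposited values are whole numbers whose totals per cell are nearly even, between 12078 and 16719, so they are treated as depth-corrected values and not as counts, and levels below are mean values per cell. These levels are not corrected for gene length, and the level of each gene is compared with its own level across populations. Shares of cells above 0 that are set side by side for different genes carry the same limit. No cell barcode was shared between the libraries with its suffix, and 5 were shared without it. Each group is 1 library, so no test between groups was possible, and the drug, the animals, the dissection and the library cannot be told apart. Cells with Xist and no Y-linked transcript (1139 in GLPG0187, 945 in vehicle) and cells with Y-linked transcripts and no Xist (2685 and 1664) are given as values for the female and male animals inside each pool. Intervals of shares are exact Clopper-Pearson 95% intervals that cover counting error only.

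Cells were clustered without the 10 genes or any other elastic fibre gene, so that the populations were not built from the levels described across them. Cluster 0 was smooth muscle cell (SMC)-like, with 12 of 12 SMC markers. Cluster 3, led by Tnnt2, Nrgn and Pln, expressed 11 of those 12 markers but had none among its 10 leading genes, where the cardiomyocyte marker Tnnt2 stood, and it stays unnamed. Clusters 0 and 3 are called the smooth muscle clusters below (1680 GLPG0187 and 847 vehicle cells), and values of each are given where they differ. Within them, sub-cluster 3 met the rule for modulated SMC-like cells, with 12 of 15 markers at least 1.5-fold higher and a mean Myh11 of 9.37 against 50.3 in the other cells. Its leading genes were Cytl1, Ahsg and Fetub. Modulated cells were 5.06% (4.06 to 6.22) of the smooth muscle clusters in GLPG0187 and 18.7% (16.1 to 21.4) in vehicle, and 84 of 85 and 155 of 158 of them lay in cluster 3. Cluster 2, led by Hsd11b1 and Gdf10, and cluster 5, led by Pi16, were fibroblast-like. Cluster 1, led by Prss35, Npy and Tbx20, stays unnamed. Cluster 6 was chondrocyte or valve-like, cluster 7 endothelial-like and cluster 4 macrophage-like. Cluster 7 also carried 6 of 6 detected lymphatic endothelial markers, with Flt4 and Prox1 among its 10 leading genes. Clusters 8 and 9 held 47 and 22 GLPG0187 cells and 49 and 24 vehicle cells. Cluster 8 met the naming rule as Schwann-like, with 6 of 6 detected Schwann markers. It mixed Schwann and other leading genes and is left unnamed here in spite of the rule. Cluster 9, led by Gpihbp1, was endothelial-like.

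The genes did not share a single profile across the populations. Among the 8 larger populations Eln and Fbln5 were highest in modulated SMC-like cells in both libraries, and Emilin1 in modulated cells in GLPG0187 and in cluster 2 in vehicle. Fbln1, Fbln2, Efemp1 and Mfap5 were highest in fibroblast-like cluster 5, Mfap4 and Efemp2 in fibroblast-like cluster 2, and Mfap2 in cluster 1, each in both libraries. Macrophage-like cells had the lowest mean of the 8 in each library for all genes but Fbln1 in both and Fbln2 in vehicle, which were lowest in smooth muscle cells that were not modulated.

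**Figure D1:**
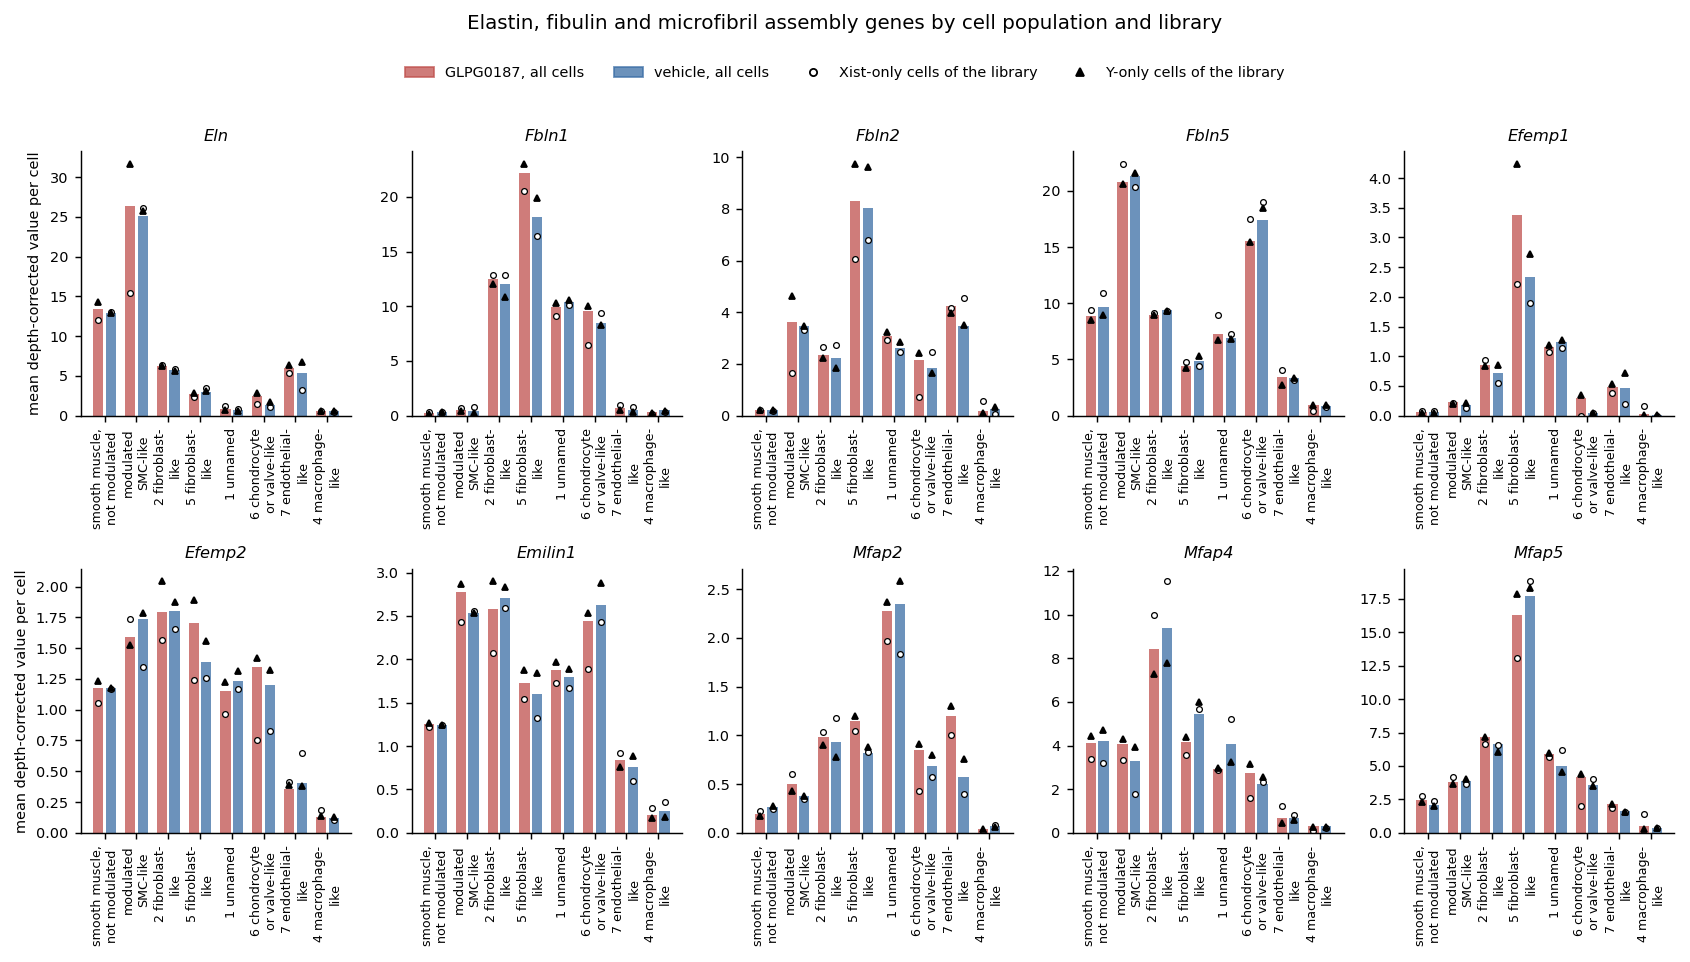
Mean depth-corrected value per cell (y axis, from 0, its own scale for each gene) of the 10 genes in 8 populations (x axis). Red bars are the GLPG0187 library and blue bars the vehicle library, circles the Xist-only cells and triangles the Y-only cells of that library. Eln reaches 26.4 and 25.1 in modulated cells, while Fbln1, Fbln2, Efemp1 and Mfap5 peak in cluster 5.

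Elastin itself was mainly a smooth muscle transcript in both libraries. Eln averaged 26.4 in GLPG0187 and 25.1 in vehicle modulated cells, and 13.4 and 12.9 in the other cells of the smooth muscle clusters. It averaged 6.19 and 5.74 in cluster 2, 6.03 and 5.39 in endothelial-like cluster 7, 2.77 and 2.98 in cluster 5, and 2.48 and 1.40 in cluster 6. It averaged only 0.868 and 0.699 in cluster 1, close to 0.599 and 0.567 in macrophage-like cells. The modulated cells, the other smooth muscle cells and cluster 2 kept this order without overlap of library means or of female and male values. Each later step, from cluster 2 against cluster 7 down to cluster 1 against macrophage-like cells, overlapped. Eln was above 0 in 30.5% (25.6 to 35.8) of GLPG0187 and 25.3% (19.1 to 32.3) of vehicle macrophage-like cells, cells that should lack it, given here as background. Those macrophage-like cells had medians of 3204.5 and 3061.5 genes detected, against 4017 and 4150 in smooth muscle cells that were not modulated. The 44.6% (41.3 to 47.9) and 38.5% (34.9 to 42.2) of cluster 1 cells above 0 stand against that background, at medians of 3817 and 4043 genes.

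Smooth muscle cells that were not modulated gave 67.8% of all Eln in GLPG0187 and 47.7% in vehicle, from 36.7% and 23.4% of the cells. The modulated cells gave 7.13% and 21.3% of Eln from 1.95% and 5.37% of the cells. Smooth muscle clusters as a whole therefore held most Eln in each library, with a different split inside them. Cluster 1, with 20.3% and 24.2% of the cells, gave 2.44% and 2.68% of Eln but 53.1% and 58.0% of Mfap2.

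**Figure D2:**
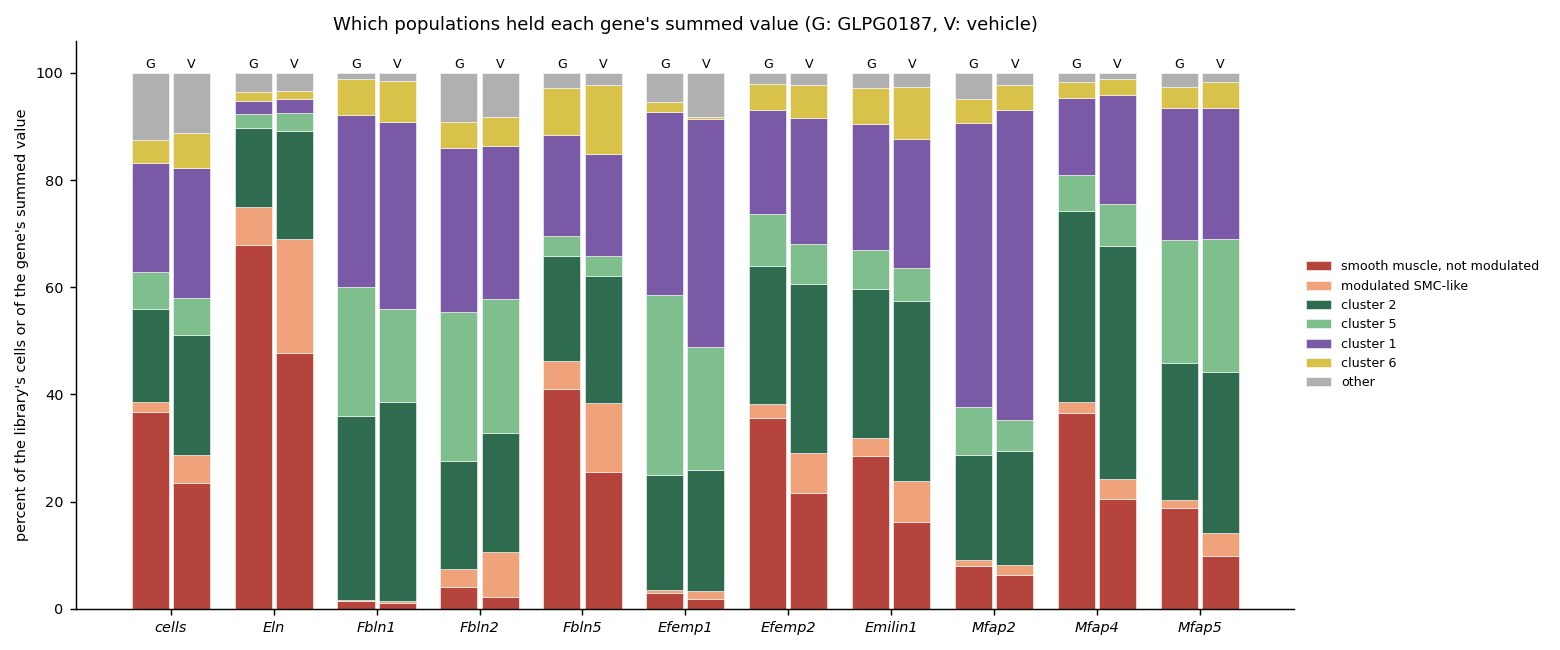
Percent of each library's cells (first pair of bars) and of each gene's summed value (other pairs) held by the populations, with GLPG0187 as the left bar (G) and vehicle as the right bar (V) of each pair. Smooth muscle cells hold most of Eln and little of Fbln1 or Efemp1, and cluster 1 holds 53.1% and 58.0% of Mfap2. Grey is the sum of clusters 4, 7, 8 and 9.

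Fibulin-5, the elastin-binding fibulin, was above 0 in 89.7% of all GLPG0187 and 91.8% of all vehicle cells, the highest share among the 5 fibulins measured. Fbln5 averaged 20.8 in GLPG0187 and 21.3 in vehicle modulated cells, 15.5 and 17.4 in chondrocyte or valve-like cluster 6, and 8.87 and 9.66 in the other smooth muscle cells. It averaged 9.0 and 9.36 in cluster 2, 7.30 and 6.94 in cluster 1 and 4.41 and 4.83 in cluster 5. Apart from cluster 2 and the smooth muscle cells that were not modulated, no neighbours in this order overlapped. Cluster 1 is no neighbour of those smooth muscle cells but overlapped them, reaching 8.98 in female GLPG0187 cells against their lowest value of 8.52. Fibulin-4 varied little by comparison. Efemp2 lay between 1.15 and 1.80 in each of the smooth muscle, fibroblast-like, cluster 1 and cluster 6 populations, and every neighbouring pair among them overlapped. It was at 0.355 and 0.405 in endothelial-like cluster 7 and at 0.132 and 0.124 in macrophage-like cells.

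Fibulin-1 was a transcript of fibroblast-like cells, cluster 1 and cluster 6. Fbln1 averaged 22.2 in GLPG0187 and 18.2 in vehicle in cluster 5, 12.5 and 12 in cluster 2, 9.92 and 10.4 in cluster 1 and 9.61 and 8.45 in cluster 6. It averaged 0.250 and 0.341 in smooth muscle cells that were not modulated and was above 0 in 11.7% and 12.8% of them, below the 16.5% and 16.9% of macrophage-like cells, so these values are at background. The exception was sub-cluster 2, where Fbln1 averaged 0.964 and 1.11 and was above 0 in 35.8% (30.7 to 41.2) and 33.5% (26.7 to 40.9) of cells. That sub-cluster was led by Corin, Tnnt2 and other cardiomyocyte genes and by Serpinf1, which is on the fibroblast marker list. Fibulin-2 had another distribution, 8.31 and 8.05 in cluster 5, 4.24 and 3.48 in endothelial-like cluster 7, 3.61 and 3.47 in modulated cells and 3.08 and 2.62 in cluster 1. In the other smooth muscle cells Fbln2 averaged 0.222 and 0.205, level with macrophage-like cells at 0.165 and 0.242. Endothelial-like cluster 9, of 22 and 24 cells, held 1.32% and 2.06% of Fbln2 from 0.506% and 0.815% of the cells. Among the 8 larger populations fibulin-3 was low outside the fibroblast-like cells and cluster 1. Efemp1 was at 3.37 and 2.33 in cluster 5, 1.15 and 1.23 in cluster 1 and 0.846 and 0.713 in cluster 2. The small cluster 8 held 2.72% of Efemp1 in GLPG0187 and 6.28% in vehicle, from 1.08% and 1.66% of the cells. Efemp1 was above 0 in 4.20% and 4.93% of smooth muscle cells that were not modulated, against 2.10% and 1.12% of macrophage-like cells.

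Of the microfibril genes, Mfap5 was highest in Pi16-marked cluster 5 and Mfap2 in cluster 1. Mfap5 averaged 16.3 in GLPG0187 and 17.7 in vehicle in cluster 5, 7.14 and 6.62 in cluster 2 and 5.89 and 4.98 in cluster 1. Mfap2 averaged 2.28 and 2.35 in cluster 1, where it was above 0 in 71.0% and 75.8% of cells, and 1.15 and 0.818 in cluster 5, without overlap between them. Mfap4 averaged 8.44 and 9.38 in cluster 2, above cluster 5 at 4.15 and 5.43, smooth muscle cells that were not modulated at 4.11 and 4.23 and modulated cells at 4.07 and 3.28, these 3 overlapping. Emilin1, the TGF-beta-restraining glycoprotein, was at 2.78 and 2.53 in modulated cells, 2.58 and 2.71 in cluster 2 and 2.44 and 2.62 in cluster 6, which overlapped, and at 1.26 and 1.25 in the other smooth muscle cells, below clusters 1, 2, 5 and 6 without overlap.

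Inside the smooth muscle clusters the genes marked different cells. Sub-cluster 0, led by the heat-shock genes Hspa1a and Hspa1b, held 693 GLPG0187 and 237 vehicle cells and had Eln at 10.9 and 9.90. Sub-cluster 1, led by Igfbp2 and Sema3e (482 and 225 cells), had Eln at 18.7 and 16.4 with Fbln5 at 7.56 and 7.88, against 7.43 and 7.38 in sub-cluster 0. Sub-cluster 2 (335 and 182 cells) had the reverse, Fbln5 at 12.6 and 15.5 and Eln at 11.1 and 12.8. The modulated sub-cluster 3 combined both with Fbln2.

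Mfap5 was carried most strongly by sub-cluster 4, led by Rgs5, Tnmd and Isl1, at 8.82 in 85 GLPG0187 cells and 13.2 in 11 vehicle cells. Mfap5 was at 2.50 and 2.38 in sub-cluster 1 and at 1.33 and 1.06 in sub-cluster 2. Sub-cluster 5, led by Actc1, held 34 vehicle and 0 GLPG0187 cells, 31 of them Xist-only.

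**Figure D3:**
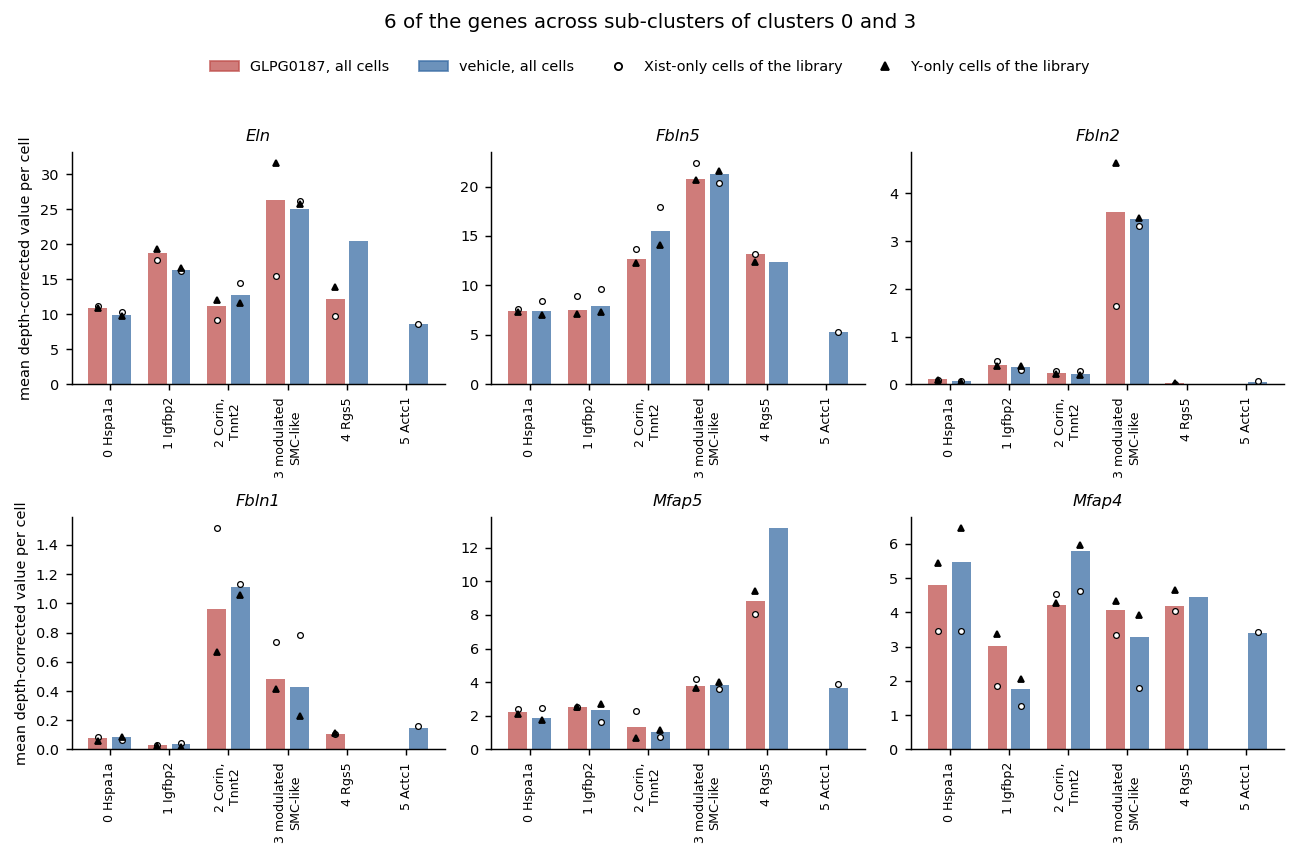
Mean depth-corrected value per cell (y axis, from 0) of Eln, Fbln5, Fbln2, Fbln1, Mfap5 and Mfap4 in 6 sub-clusters of clusters 0 and 3 (x axis, with leading genes). Red bars are GLPG0187, blue bars vehicle, circles Xist-only and triangles Y-only cells, given for at least 10 cells. Fbln2 is highest in sub-cluster 3, Fbln1 peaks in sub-cluster 2 and Mfap5 in sub-cluster 4, and sub-cluster 5 holds no GLPG0187 cell.

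In cluster 3 taken whole, 6 of 10 genes were at least 1.5-fold higher than in cluster 0 in GLPG0187, where 7.38% of all genes were, and 7 of 10 in vehicle, where 8.48% were, and 0 of 10 were lower (6.88% and 8.62% of all genes). Fbln1 had the largest ratio of the 10, at log2 3.31 and 3.54, over background means of 0.0816 and 0.0718 in cluster 0. Its highest values were in sub-cluster 2 and not in the modulated cells. Modulated cells carried more of most of these genes than the other smooth muscle cells, in both libraries. At least 1.5-fold higher values were found for 8 of 10 genes in GLPG0187, where 16.8% of all measured genes were higher, and for 6 of 10 in vehicle, where 11.4% were, and for 0 of 10 in the other direction (10.4% and 9.98% of all genes). The median log2 ratio of the 10 was 1.06 and 0.93. Fbln2 stood out with a log2 ratio of 4.03 in GLPG0187 and 4.08 in vehicle, followed by Efemp1 at 2.08 and 1.75 on low means. Mfap2, also low, was at 1.43 in GLPG0187 but 0.54 in vehicle, Fbln5 at 1.23 and 1.15, Emilin1 at 1.15 and 1.03 and Eln at 0.98 and 0.96. Mfap5 was at 0.62 and 0.89. Fbln1, at 0.98 in GLPG0187 and 0.35 in vehicle, is counted among the 8 over a background level in the other smooth muscle cells. Mfap4 did not follow, at -0.01 and -0.36. The summed mean of 12 fibroblast markers was 45.6 and 37.2 in modulated cells and 12.7 and 13.9 in the other smooth muscle cells, against 231 and 233 in cluster 2, and 3 of them (Cd34, Lum and Ly6a) are also modulated SMC markers. The summed mean of the 10 chondrocyte or valve markers was 36.4 and 22.9 in modulated cells, with 6 and 10 of them above 0, and 1.93 and 2.92 in the other smooth muscle cells, against 217 and 271 in cluster 6, where Fbln5 and Emilin1 were also high. The part of either marker list in these ratios was not tested. Fbln1 was at 0.482 and 0.430 in modulated cells, against 12.5 and 12 in cluster 2.

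The fibroblast-like clusters differed by 2 opposite sets. Cluster 5 exceeded cluster 2 by at least 1.5-fold for 4 of 10 genes in each library, when 9.19% of all genes did in GLPG0187 and 7.62% in vehicle. These were Efemp1 (log2 1.98 and 1.73), Fbln2 (1.80 and 1.87), Mfap5 (1.17 and 1.44) and Fbln1 (0.82 and 0.62). Cluster 5 was lower for 4 others in each library (7.95% and 8.18% of all genes), Eln at -1.18 and -0.93, Fbln5 at -1.05 and -0.94, Mfap4 at -1.04 and -0.77 and Emilin1 at -0.60 and -0.74. Cluster 1 had a fibroblast marker sum of 218 and 207, against 231 and 233 in cluster 2 and 242 and 232 in cluster 6, and a chondrocyte or valve marker sum of 36.3 and 33.8, against 21.5 and 19.3 in cluster 2. It was below cluster 2 for Eln (log2 -2.88 and -3.09) and Mfap4 (-1.58 and -1.26) and above it for Mfap2 (1.17 and 1.28). In all 1 of 10 genes was at least 1.5-fold higher in cluster 1 in GLPG0187 and 2 of 10 in vehicle (18.8% and 19.9% of all genes), and 3 and 4 were lower (9.86% and 9.54%).

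**Figure D4:**
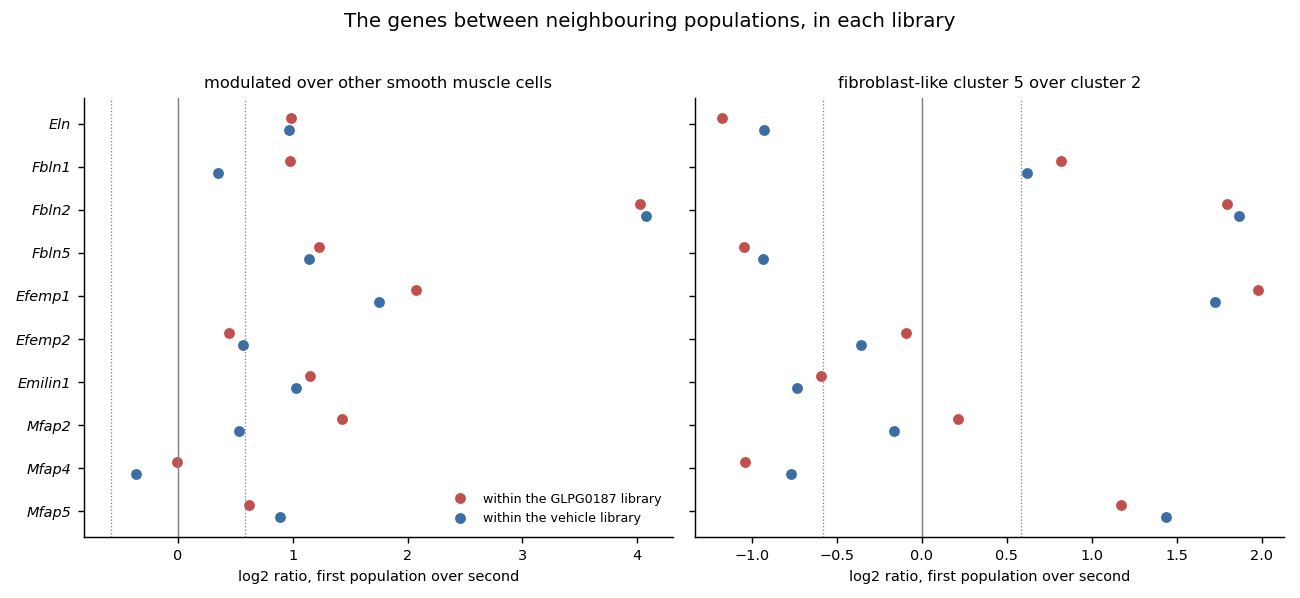
Log2 ratio (x axis) of each gene between 2 populations of the same library, modulated over other smooth muscle cells (left) and cluster 5 over cluster 2 (right), with red points within GLPG0187 above blue points within vehicle. Dotted lines mark 1.5-fold. Fbln2 lies at 4.03 and 4.08 on the left, and on the right Efemp1, Fbln2, Mfap5 and Fbln1 lie opposite to Eln, Fbln5, Mfap4 and Emilin1.

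Over the 10 clusters, profiles could be compared among 6508 genes by Pearson correlation of log2(mean + 0.1), where the clusters of a library share dissociation, free RNA and depth correction. The nearest genes below were taken only from outside the 10 genes and the other elastic fibre lists, so any nearer genes of those lists are not shown. Nearest to Eln were Gucy1a1 and Gucy1b1, the soluble guanylate cyclase subunits of smooth muscle, and Cald1, caldesmon (lower r of the libraries 0.93, 0.92 and 0.91). Nearest to Fbln1 were Ppib, Bicc1 and Pcolce, a procollagen C-proteinase enhancer, and to Mfap5 Pcolce2, another such enhancer, with Ndn and Nfix. Cd34, itself on the fibroblast and modulated marker lists, Sptbn1 and Ubtf were nearest to Fbln2, and Adgrl1, Mgp and Ctgf to Fbln5. Efemp1 had Slc4a4, Scn7a and Scarb2, and Efemp2 had Cpq, Maged2 and Rcn3. Emilin1 had Ckap4, Kdelr3 and Maged1, Mfap2 had Epha7, Snap47 and Ghr, and Mfap4 had Bace1, Il11ra1 and Lhfp. Among the 10 genes, Efemp2 and Emilin1 were alike (r 0.95 and 0.89), as were Fbln5 and Emilin1 (0.88 and 0.93). Eln had negative values with Fbln1 (-0.25 and -0.33).

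The genes also met in single cells. The median number of the 10 genes above 0 was 8 in GLPG0187 and 7 in vehicle cells of cluster 5, and 7 in cells of clusters 1 and 2, 6 in modulated cells, 5 in other smooth muscle cells and 1 in macrophage-like cells of each library. Mfap4 and Mfap5 in smooth muscle cells that were not modulated were above 0 together in 38.7% of GLPG0187 and 31.3% of vehicle cells, against products of 33.9% and 28.0%, and in macrophage-like cells in 8.68% and 10.1%, against products of 3.66% and 2.79%. This pair was chosen after its values were seen. Other pairs in smooth muscle cells that were not modulated lay below their products, such as Efemp1 and Mfap5 at 1.88% and 1.60%, against products of 2.15% and 2.31%, and Emilin1 and Mfap5 at 34.4% and 29.0%, against 35.3% and 30.5%.

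The next comparison asks whether the genes differed in level with GLPG0187. In the smooth muscle clusters taken whole, 1 of 10 genes, Fbln2, was at least 1.5-fold lower in GLPG0187, where 2.81% of 10760 measured genes were, and 0 of 10 were higher, where 0.558% were. Fbln2 averaged 0.393 in GLPG0187 and 0.813 in vehicle (log2 ratio -1.04). It was 0.281 and 0.584 in the female cells and 0.438 and 0.896 in the male ones, both GLPG0187 values below both vehicle values. The median log2 ratio of the 10 genes was -0.23, against -0.04 for all genes. Female and male values lay both below for 4 of the 10 genes, Fbln2, Fbln5, Emilin1 and Mfap2, when 28.7% of all genes did so, and both above for 0 of 10 (11.2% of all genes).

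Inside each kind of smooth muscle cell the Fbln2 means of the libraries lay closer. Without the modulated cells it averaged 0.222 in GLPG0187 and 0.205 in vehicle (log2 0.12), level with macrophage-like cells, so that a lower value could not be detected there. In the modulated cells it averaged 3.61 and 3.47 (log2 0.06), with female values of 1.65 and 3.31 and male values of 4.64 and 3.49, and was above 0 in 61.2% (50 to 71.6) and 63.9% (55.9 to 71.4) of them. The share of modulated cells, 5.06% against 18.7%, moved with the lower Fbln2 of the whole, and its part in that value was not tested. Without the modulated cells 0 of 10 genes were past 1.5-fold (0.617% of all genes higher, 1.31% lower), with a median of -0.01, against -0.04 for all genes. Female and male values lay both above for 1 of 10, Fbln2 at these background levels (9.75% of all genes), and both below for 1 of 10, Mfap2 (26.1%). In SMC-like cluster 0 alone 0 of 9 measured genes were past 1.5-fold (0.545% higher, 1.42% lower), with a median of 0.14. Both sexes were above there for 2 of 9, Emilin1 and, at background levels, Fbln2 (9.80% of all genes), and below for 0 of 9 (25.4%). By sub-cluster, 0 of 7 measured genes were past 1.5-fold in sub-cluster 0 (0.762% of all genes higher, 2.23% lower). In sub-cluster 1, 1 of 8 was higher, at 0.77 (0.644%), and 0 lower (1.30%). In sub-cluster 2, 1 of 9 was lower, at -0.59, just past the mark (1.39%), and 0 higher (1.69%). In sub-cluster 4, with 85 GLPG0187 and 11 vehicle cells, 1 of 6 was lower, at -0.73 (5.73%), and 0 higher (6.61%).

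Eln averaged 14.0 in GLPG0187 and 15.2 in vehicle over the smooth muscle clusters (log2 -0.11), 12.2 and 14.6 in female and 15.1 and 15.6 in male cells. The groups overlapped. Without modulated cells Eln was at 13.4 and 12.9 (0.06), Fbln5 at 8.87 and 9.66 (-0.12), Efemp2 at 1.17 and 1.18 (-0.00) and Emilin1 at 1.26 and 1.25 (0.02). Mfap5 was at 2.47 and 2.09 (0.24). The largest distances were of 2 low genes, Mfap2 at 0.191 and 0.261 (-0.45) and Fbln1 at 0.250 and 0.341 (-0.44), the second of which is at background there.

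In modulated cells 0 of the 9 measured genes were past 1.5-fold (1.49% of all genes higher, 1.84% lower), with a median of 0.07 against -0.01 for all genes. Both sexes were above for 1 of 9, Mfap2 (15.2% of all genes), and below for 0 of 9 (18.6%). Eln was at 26.4 in GLPG0187 and 25.1 in vehicle, and Fbln5 at 20.8 and 21.3. The 85 GLPG0187 modulated cells were uneven by sex for Eln, 15.4 in 23 female and 31.6 in 53 male cells, against 26.1 in 32 female and 25.7 in 109 male vehicle cells. Fbln2 was uneven in the same direction. Cluster 3 differed in make-up, with 84 modulated cells of 430 in GLPG0187 and 155 of 318 in vehicle. There 1 of 10 genes was lower, where 3.17% of all genes were, and 0 of 10 were higher (1.82%). Fbln2 was 0.900 in GLPG0187 and 1.85 in vehicle (-1.02), Eln 14.6 and 19.4 (-0.39) and Fbln5 14.2 and 18.8 (-0.39), and for these 3 of 10 genes both sexes were below (25.5% of all genes), against 0 of 10 above (14.4%).

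**Figure D5:**
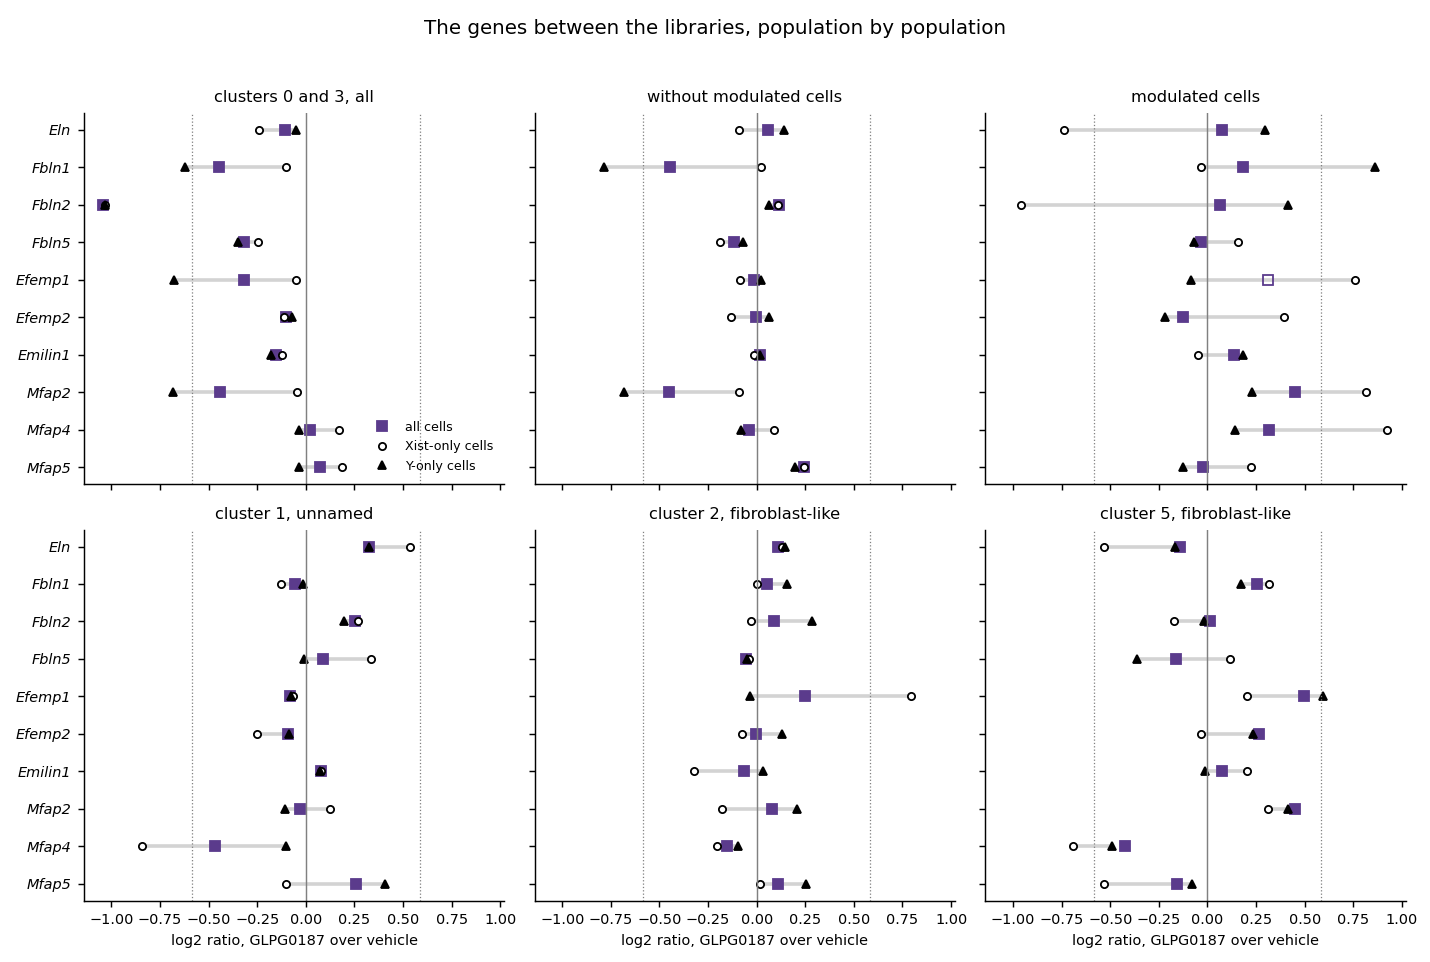
Log2 ratio of GLPG0187 over vehicle (x axis) for the 10 genes in 6 populations, with squares for all cells (open where the summed value was under 100), circles for Xist-only and triangles for Y-only cells, and dotted lines at 1.5-fold. Fbln2 lies at -1.04 in clusters 0 and 3 taken whole, at 0.12 without modulated cells and at 0.06 in modulated cells. No other square passes a dotted line.

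The fibroblast-like cells also gave 0 of 10 genes past 1.5-fold, in clusters 2 and 5 together and in each (2.56% of all genes higher and 1.16% lower in both together), with a median of 0.06 against -0.03 for all genes. Efemp1 was closest to the mark, at 1.56 in GLPG0187 and 1.10 in vehicle (log2 0.50). It was 1.30 and 0.853 in female cells and 1.83 and 1.30 in male cells, the GLPG0187 female value barely above the vehicle male value (1.301 and 1.297), and the sexes overlapped in cluster 2 and in cluster 5 taken alone. Fbln1 was at 15.2 and 13.5 (0.17), without overlap, so that 2 of 10 genes were above (13.7% of all genes) and 1 of 10, Fbln5, below (20.8%). In cluster 2 alone 2.14% of all genes were higher and 1.47% lower, and both sexes were above for Eln and Mfap5 (12.5% of all genes) and below for Fbln5 (22.4%). In cluster 5 alone 3.71% were higher and 2.06% lower, and both sexes were above for 2 of 10, Fbln1 and Mfap2 (16.7%), and below for 3 of 10, Eln, Mfap4 and Mfap5 (16.3%). Mfap4 went the other way in cluster 5, at 4.15 in GLPG0187 and 5.43 in vehicle (-0.42), with 3.55 and 5.69 in female cells and 4.38 and 5.99 in male cells, both below. Over both fibroblast-like clusters Eln was at 5.23 and 5.09 (0.03) and Fbln5 at 7.70 and 8.30 (-0.11).

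In cluster 1, 0 of 10 genes were past 1.5-fold (1.32% of all genes higher, 1.52% lower), with a median of 0.02 against -0.05. Mfap4 was at 2.91 in GLPG0187 and 4.06 in vehicle (-0.46), with 2.86 and 5.22 in female cells and 2.96 and 3.22 in male cells. Both sexes were below for Mfap4 alone of the 10 (28.1% of all genes) and above for Fbln2 alone (8.46%), at 3.08 and 2.62 (0.25). Mfap2 was at 2.28 and 2.35 (-0.03). In chondrocyte or valve-like cluster 6, 1 of 9 measured genes was higher, Eln, at 2.48 and 1.40 (0.82), where 3.84% of all genes were. Eln was above 0 in 49.5% (42.2 to 56.7) of 194 GLPG0187 and 28.5% (22.2 to 35.4) of 193 vehicle cells, and the vehicle interval overlaps that of macrophage-like cells. Female and male values overlapped (1.43 and 2.85 in GLPG0187, 1.08 and 1.72 in vehicle), and the summed SMC markers there were 26.2 and 23.4, whose part in the result was not tested. Both sexes were above for 0 of 9 genes there (19.9% of all genes) and below for 1 of 9, Fbln5 (12.7%). Endothelial-like cluster 7 had 1 of 9, Mfap2, at 1.20 in 138 and 0.570 in 79 cells (1.03), where 4.59% of all genes were higher, and 0 of 9 were lower (3.85%). The summed fibroblast markers in cluster 7 were 28.4 and 19.1, and their part in the Mfap2 value was not tested. Both sexes were above for Mfap2 and Mfap5 (17.7% of all genes) and below for 0 of 9 (14.9%). Macrophage-like cells had 1 of 6, Fbln1, at 0.326 and 0.489 (-0.61), where 3.36% of all genes were lower, and these are background levels. In the small cluster 8, 1 of 7 genes was higher, Mfap4, and 2 were lower, Fbln1 and Efemp1 (8.41% and 16.1% of all genes), and in cluster 9 the 1 measured gene, Fbln2, was at -0.12 (6.67% and 8.04%).

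Over all cells, 0 of the 10 genes were past 1.5-fold (3.29% of all genes higher, 2.12% lower), both sexes were above for Eln (13.3% of all genes) and both were below for 5 of 10 (26.0%). Eln averaged 7.23 in GLPG0187 and 6.33 in vehicle (log2 0.19), and Fbln1 6.29 and 7.23 (-0.20). When each population's own level was weighted by the mean population shares of the libraries, Eln was at 6.98 and 6.59 (0.08) and Fbln1 at 6.90 and 6.63 (0.06). Fbln5 was at -0.16 over all cells and -0.06 at common shares, and Mfap4 at -0.23 and -0.16. The distances between whole libraries were smaller at common shares for Eln, Fbln1, Fbln5, Efemp2, Emilin1, Mfap2 and Mfap4, and larger for Efemp1 (0.17) and Mfap5 (0.11), with Fbln2 at -0.13 and 0.12.

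The 7 other elastic fibre lists held 60 genes, and their counts in the smooth muscle clusters stand against the 2.81% of all genes lower and 0.558% higher there. Of the fibrillin and latent TGF-beta binding genes, 1 of 5 measured was lower in the smooth muscle clusters, Ltbp2, at 0.689 in GLPG0187 and 1.04 in vehicle (-0.60), and at 0.555 and 0.623 without modulated cells. Fbn1, fibrillin-1, was at 2.14 and 2.62 (-0.29), at 1.96 and 2.00 without modulated cells and at 5.44 and 4.91 in fibroblast-like cells. The crosslinking genes had 0 of 5 past the mark, with Lox at 2.23 and 2.26 and Loxl1 at 2.21 and 2.31. Of the ADAMTS and ADAMTSL genes 1 of 7 was lower, Adamtsl2, at 0.0452 and 0.109 (-1.26), and of the other fibulin, EMILIN and MFAP genes 1 of 4, Fbln7, at 0.117 and 0.203 (-0.79).

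Among elastin-degrading enzymes 1 of 5 was lower (2.81% of all genes), Mmp2, the gelatinase A gene, at 0.471 in GLPG0187 and 0.779 in vehicle (-0.72). Of the protease inhibitors 2 of 5 were, Timp1 at 0.818 and 1.84 (-1.17) and Timp4 at 0.435 and 1.01 (-1.21), the last with overlapping sexes. Timp1 is also on the modulated SMC marker list, so its value without modulated cells depends in part on how those cells were picked. Without modulated cells Mmp2 was at 0.342 and 0.364, Timp1 at 0.519 and 0.612 and Timp4 at 0.365 and 0.309. Timp4 alone of these was also lower inside the modulated cells, at 1.75 and 4.08 (-1.21). The receptors and partners had 0 of 14 past the mark over the smooth muscle clusters (2.81% of all genes lower, 0.558% higher). Itgav, the integrin alpha-v subunit that the drug is directed at, was at 1.15 and 1.23 (-0.09) there and 1.46 and 1.35 (0.11) in fibroblast-like cells. Lgals3, galectin-3, also on the modulated SMC marker list, was the 1 of 14 higher without modulated cells, at 1.03 and 0.691 (0.59), where 0.617% of all genes were. It lay at the 1.5-fold mark itself, and without sub-clusters 4 and 5 the count was 0 of 14, with 0.58 as the highest ratio. Without sub-cluster 2 the count was 1 of 14, with 0.72 as the highest ratio, where 0.556% of all genes were higher. In fibroblast-like cells Lgals3 was at 0.267 and 0.161 (0.71), where 2.56% of all genes were higher.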

How the data were processed

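Both libraries hold single-cell RNA from pooled male and female aortas, 1 library per group, grouped by treatment label and title. What the authors deposited are whole numbers whose totals are nearly even between cells. The values deposited by the authors were taken as a depth-corrected score, not as counts, and no source used here names the correction. Cell Ranger, Seurat and mm10 are named per the submitters' processing notes. Evening out the totals hides raw depth and any difference in RNA content between cells.

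Doublets were removed with Scrublet in scanpy 1.11.5, 48 cells (1.09%) in GLPG0187 and 16 (0.540%) in vehicle. After scaling each cell to 10000 and taking logs, 2000 variable genes (without the 10 genes, the other elastic fibre lists, mitochondrial, ribosomal, Xist, Tsix and Y-linked genes) gave 30 principal components, and Leiden clustering (leidenalg 0.10.2, 20 neighbours, resolution 0.5) gave the clusters. A cluster was named when at least 3 and 75% of a class's detected markers were in 25% of its cells and over 3 times the median cluster, and no other class had more markers among its 10 leading genes. Smooth muscle clusters carried at least 60% of the SMC markers. A sub-cluster was modulated when at least 50% of 15 markers lay 1.5-fold above the other smooth muscle cells and Myh11 was below 50% of theirs. The thresholds were chosen with the data in view, and the genes and lists were chosen with earlier results of these data known.

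Log2 ratios compare summed values divided by the population total, after adding 1, for genes with sums of at least 100 in both libraries together. Calls are by size only, at 1.5-fold, over all measured genes. On simulated data the ratio was tested with known folds. All 10 genes are named. Of the other lists, genes are named that had a mean of at least 0.5 in smooth muscle or fibroblast-like cells of either library and were 1.5-fold apart in either of these classes (the same class need not meet both), with Fbn1, Lox, Loxl1 and Itgav. Software was igraph 0.11.9, matplotlib 3.10.9, scikit-learn 1.9.0, pandas 2.3.3, scipy 1.17.1, numpy 2.4.6 and Python 3.11.15. Alternatives were other scaling, added constants, capped values, single-sex cells, clusterings, kept doublets, left-out sub-clusters and other minimum sums.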

Additional observations from a re-analysis of the deposited data

Results flagged for a closer look

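For Eln, Mfap5 and Fbln2 the log2 ratio of GLPG0187 over vehicle ran in opposite directions in 2 clusters, with female and male values apart in each. Mfap2 did so within smooth muscle, on low means. Both sexes were below without modulated cells (0.191 in GLPG0187 and 0.261 in vehicle) and above in modulated cells (0.506 and 0.373). The difference between populations was not tested in any of them. Eln stood at 0.11 in fibroblast-like cluster 2 and at -0.14 in fibroblast-like cluster 5, and at -0.39 in cluster 3. Mfap5 stood at 0.11 in cluster 2 and -0.15 in cluster 5. Fbln2 stood at 0.25 in cluster 1 and 0.21 in cluster 0, in cluster 0 on means of 0.219 and 0.189 that are level with macrophage-like background, and at -1.02 in cluster 3, which holds most of the modulated smooth muscle cells.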

How the results depend on the processing

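Of 712 single-gene values under alternative settings, 680 stayed close to the reported value, 31 moved further, and 1 that was past 1.5-fold as reported took the other sign. Values within 1.5-fold that crossed 0 are not counted as turned. The 1 was Fbln2 in the smooth muscle clusters, -1.04 with modulated cells and 0.12, at background levels, without them, where the count of genes past 1.5-fold was 0 in place of 1. That count was 4 in Y-only cells and 2 with genes scaled within each library. Without modulated cells the count, 0 as reported, was 2 in Y-only cells (Fbln1 at -0.79 and Mfap2 at -0.68) and 1 with genes scaled within each library. In cluster 1 and in fibroblast-like cells it was 1 in Xist-only cells, against 0, Mfap4 at -0.85 and Efemp1 at 0.61. In modulated cells, Xist-only values were -0.74 for Eln and -0.96 for Fbln2, opposite in sign to the reported 0.07 and 0.06. The cause was not tested. The median log2 ratio of the genes ranged over all alternatives from -0.27 to -0.01 in the smooth muscle clusters, from -0.12 to 0.09 without modulated cells, from 0.07 to 0.18 in modulated cells, from -0.01 to 0.08 in cluster 1, from -0.07 to 0.17 in fibroblast-like cells and, most widely, from -0.35 to 0.29 in cluster 6, where 8 of 81 single-gene values moved. With no minimum sum, 19.4% to 23.9% of all genes were past 1.5-fold, and with sums of at least 500, 0.612% to 2.24%. These shares cover the smooth muscle clusters with and without modulated cells, cluster 1 and the fibroblast-like cells. They were not computed for modulated cells alone or cluster 6. Leaving out sub-cluster 2, or sub-clusters 4 and 5, was added after seeing the data and left 0 genes past the mark. No counterpart of cluster 5 was found with genes scaled within each library or doublets kept.

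No paired analysis was possible because each group holds 1 library. Low genes such as Efemp1, Mfap2 and Fbln1 in smooth muscle rest on few cells above 0, sub-clusters 4 and 5 come mostly from 1 library, and free RNA reaches all populations.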

Other observations

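Emilin2, an EMILIN family gene chosen after its values were seen, averaged 0.361 in GLPG0187 and 0.170 in vehicle fibroblast-like cells (log2 1.08), and both sexes were above. Inside the modulated SMC-like cells, Dcn, the small proteoglycan decorin, averaged 39.0 and 19.6 (0.99) and Vcan, versican, 1.22 and 0.329 (1.88), both also chosen after their values were seen. Of all measured genes, 1.49% were at least 1.5-fold higher in GLPG0187 there. Dcn is also on the modulated SMC marker list by which these cells were picked. The Dcn and Vcan values rest on 85 GLPG0187 and 158 vehicle cells of 1 library each.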
